A study of Homo sapiens with 19 samples.

Results

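Intervals called for the retinoblastoma protein RB, and for V5 in lines named after E2F1, were examined at the start sites of 10 genes. The genes, whose products run mitosis, were KIFC1, KIF11, AURKA, AURKB, PLK1, BUB1, MAD2L1, CCNB1, TOP2A and BIRC5. The genes were chosen by their mitotic function with the interval calls of these same data already known, so what follows is a description with no test. A gene counted as occupied in a list when an interval overlapped, by at least 1 base, the window from 2 kb before to 2 kb after its start site in the human genome build hg19. Of the 203381 intervals deposited in the series, 14 met this rule, and 7 of the 10 genes had at least 1 of them.

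The series comprises 19 libraries of chromatin immunoprecipitation with sequencing (ChIP-seq) in 10 groups, from 2 established prostate cancer cell lines kept in RPMI 1640 with 5% charcoal-stripped serum, which is low in steroid hormones. RB was mapped without treatment in C4-2 (2 libraries) and VCaP (1 library). V5 was mapped in lines named C4-2-tetE2F1. Their E2F1 was the wild type protein (WT) or K185R, a mutant with arginine in place of a lysine. Each of these lines was left untreated, given doxycycline at 0.25 ug/ml for 3 days, given the LSD1 inhibitor GSK2879552 at 50 uM for 24 hours, or given doxycycline first and the inhibitor afterwards, with 2 libraries a treatment. LSD1 is a demethylase that acts on histones and on other proteins. The names of the V5 lists carry siNTC and siRB where the treatment labels have untreated and doxycycline, and the groups here follow the labels. The labels do not say whether tagged E2F1 was made without doxycycline or whether a line is 1 clone, so a V5 interval is reported as an interval and not as E2F1.

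RB holds E2F transcription factors in check, and the best known targets of this pair are genes needed for entry into S phase. Genes of mitosis are switched on later in the cell cycle. Many of them carry a cell cycle genes homology region (CHR), which the MuvB complexes bind, together with CCAAT boxes, which NF-Y binds, and fewer depend on an E2F site alone. These genes are often high in advanced prostate cancer.

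Promoter sequences of 8 of the 10 genes were matched by symbol in RefSeq (GRCh38.p14), each holding 250 bases before and 50 after the start. AURKA and BIRC5 were not matched. These 4 are shown because they span the range of the binding data: KIFC1 had intervals in 7 lists, CCNB1 and KIF11 had RB in VCaP only, and PLK1 had none. They are written 5′ to 3′ along the gene and end 30 bases after the start. Capitals mark 3 kinds of letters, searched on both strands with overlaps allowed. CHR letters were TTTGAA and also TTTAAA. The NF-Y box was CCAAT, which reads ATTGG in reverse. For E2F the letters were TTCCCGC, the variant TTTGGCG and the variant TTTCGCG.
KIFC1 (chr6:33391573-33391852, plus strand): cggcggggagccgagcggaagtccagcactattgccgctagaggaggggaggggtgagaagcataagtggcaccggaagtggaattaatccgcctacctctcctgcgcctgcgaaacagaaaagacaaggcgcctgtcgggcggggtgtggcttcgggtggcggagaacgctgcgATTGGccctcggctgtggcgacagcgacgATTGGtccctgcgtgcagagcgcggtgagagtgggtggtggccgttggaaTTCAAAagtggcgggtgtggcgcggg
CCNB1 (chr5:69166900-69167179, plus strand): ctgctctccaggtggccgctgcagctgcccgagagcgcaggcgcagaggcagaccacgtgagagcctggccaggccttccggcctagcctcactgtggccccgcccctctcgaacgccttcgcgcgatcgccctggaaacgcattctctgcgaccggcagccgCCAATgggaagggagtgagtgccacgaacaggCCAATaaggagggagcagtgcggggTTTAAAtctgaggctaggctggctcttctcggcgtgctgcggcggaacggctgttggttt
KIF11 (chr10:92592880-92593159, plus strand): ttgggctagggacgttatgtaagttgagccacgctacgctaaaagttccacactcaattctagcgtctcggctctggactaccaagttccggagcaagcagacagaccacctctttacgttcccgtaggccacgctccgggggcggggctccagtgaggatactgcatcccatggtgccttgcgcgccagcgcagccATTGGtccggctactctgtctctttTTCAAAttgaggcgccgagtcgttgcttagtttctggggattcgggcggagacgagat
PLK1 (chr16:23678639-23678918, plus strand): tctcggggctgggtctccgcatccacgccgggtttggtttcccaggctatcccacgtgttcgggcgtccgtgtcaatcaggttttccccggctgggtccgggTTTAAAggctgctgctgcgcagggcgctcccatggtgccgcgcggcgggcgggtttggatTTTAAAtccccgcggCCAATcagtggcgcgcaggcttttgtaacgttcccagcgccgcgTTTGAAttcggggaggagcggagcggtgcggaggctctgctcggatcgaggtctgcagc

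CCAAT was found in the promoters of 8 of the 8 matched genes, against 34.6% of the 35116 promoters of the RefSeq table. CHR letters were found in 6 of the 8, namely CCNB1, KIF11, KIFC1, MAD2L1, PLK1 and TOP2A, against 24.0% of all promoters. BUB1 and AURKB lacked these letters in the windows scanned. For AURKB these windows, and the CCAAT found in them, belong to RefSeq starts that may lie away from its hg19 start site, where letters were not searched. E2F letters were found in 1 of the 8, KIF11, where TTTGGCG begins 37 bases after the start, beyond the part shown, and in 9.38% of all promoters. In KIFC1, CCAAT occurred in reverse with its first base 75 and 46 bases before the start, and TTTGAA in reverse 5 bases after it. PLK1 carried CCAAT 73 bases before the start and TTTGAA 29 bases before it, and yet had no interval in any list. A match is a description of letters and not of a bound site. The intervals below are in hg19 and were not placed on these GRCh38 sequences. The RefSeq starts were not matched to the hg19 start sites either, so the start of a gene may differ between them.

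Each group is represented by 1 deposited list of MACS2 intervals, so no value below has a spread between libraries. The RB lists held 9146 intervals in C4-2 and 17026 in VCaP, and the V5 lists between 2805 and 64025. For each interval the authors give a fold enrichment of the summit over its local background and a q-value as −log10 q. The reads at the summit and the local background were solved from the fold and the p-value. The lowest background common to at least 5 intervals of a list is its floor, 0.821 reads for RB in C4-2 and 0.635 in VCaP. Depth was taken as the floor divided by the length of the shortest interval of the list, assumed to be the fragment length. Depth was 8.21 reads per kilobase for RB in C4-2, 2.98 in VCaP, and 0.716 to 1.79 in the V5 lists.

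**Figure D1:**
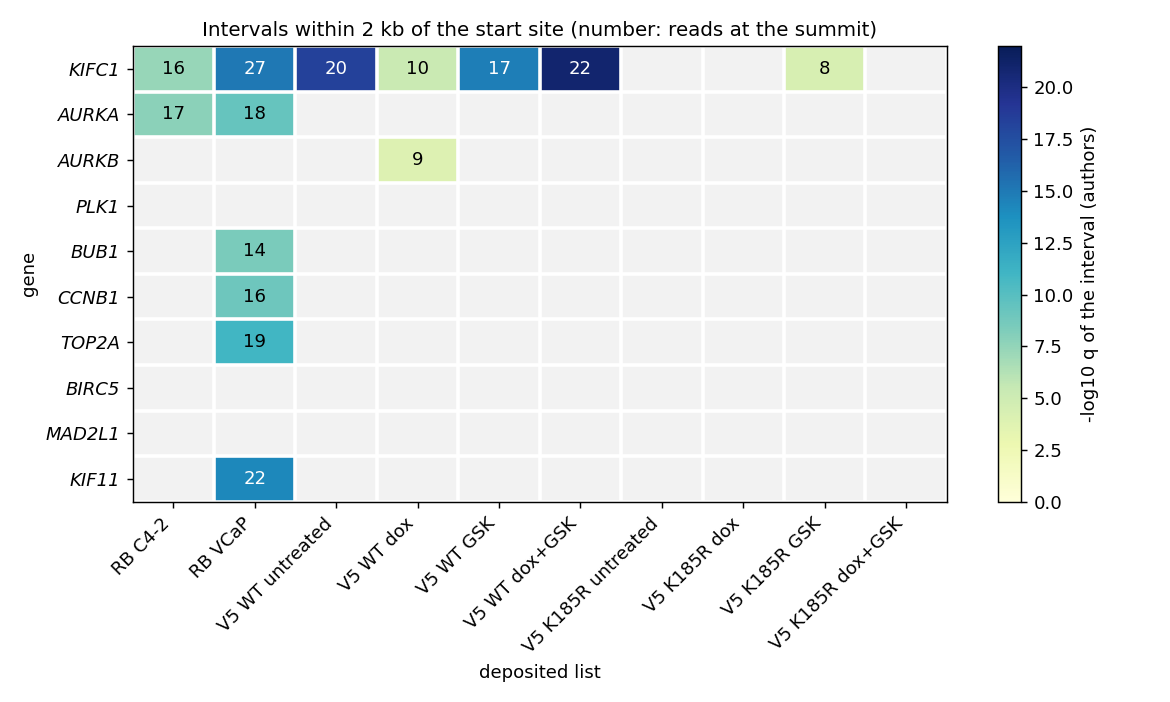
Intervals within 2 kb of each start site. Rows are genes and columns the 10 deposited lists (dox, doxycycline; GSK, GSK2879552), colour gives the authors' −log10 q, the number is the reads at the summit, and grey means no interval. VCaP RB fills 6 rows, C4-2 RB 2, and the V5 lists only KIFC1 and, once, AURKB.

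RB lay at 6 of the 10 mitotic start sites in VCaP and at 2 of them in C4-2. The VCaP genes were KIFC1, KIF11, AURKA, BUB1, CCNB1 and TOP2A, and the C4-2 genes were KIFC1 and AURKA. As a background, the genome was tiled into 758641 windows of 4001 bases, the same length as a start-site window. An RB interval was present in 2.32% of these windows in VCaP and in 1.09% in C4-2. Most tiled windows are not promoters, and start sites of other genes in hg19 were not used here, so these shares say nothing about mitotic genes against other genes. V5 intervals fell at KIFC1 in 5 of the 8 V5 lists and at AURKB in 1. PLK1, BIRC5 and MAD2L1 had no interval in any list.

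Among the spindle motors, KIFC1 was the one with intervals in both cell lines and in both kinds of V5 line. KIFC1 is a minus-end-directed kinesin that bundles spindle microtubules and helps cells with extra centrosomes divide in a bipolar way. Its RB interval in C4-2, at chr6:33359479-33359646, had a fold of 6.32, a −log10 q of 7.32 and 16 summit reads. In VCaP the RB interval was wider, at chr6:33359118-33359702, with a fold of 7.97, a −log10 q of 15.1 and 27 summit reads. The VCaP interval covered the hg19 start site, and the C4-2 interval began downstream of it. KIF11, the plus-end-directed motor that pushes spindle poles apart, had RB in VCaP alone. Its interval at chr10:94352794-94353108 had a fold of 8.85, a −log10 q of 14.2 and 22 summit reads, and this fold was the highest of the 6 VCaP intervals.

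In the V5 lists, KIFC1 had an interval in 4 of 4 WT lists and in 1 of 4 K185R lists. In untreated WT cells it had a fold of 12.4, a −log10 q of 18.3 and 20 summit reads. With doxycycline the WT interval had a fold of 6.36, a −log10 q of 5.32 and 10 reads. With GSK2879552 the WT interval had a fold of 11.1, a −log10 q of 14.7 and 17 reads. The WT list with both agents gave the highest values of the 4, a fold of 13.5, a −log10 q of 20.9 and 22 reads. The single K185R interval, in the list with GSK2879552, had a fold of 6.10, a −log10 q of 4.32 and 8 reads. The untreated, doxycycline and combined K185R lists had none. Their depths were 1.79, 1.12 and 0.838 reads per kilobase, and the part played by depth was not tested.

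**Figure D2:**
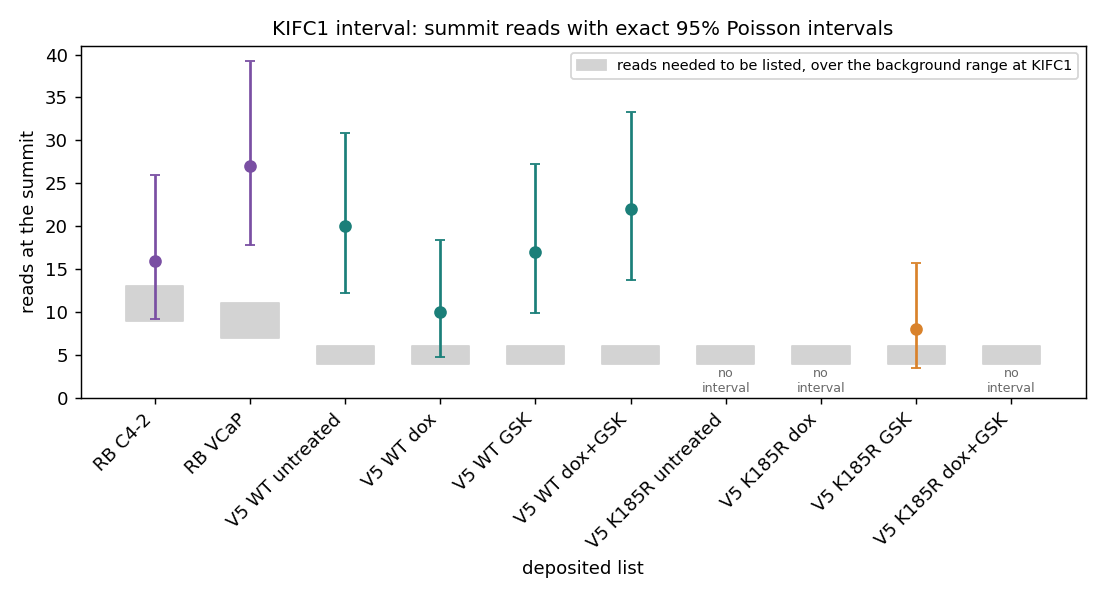
Reads at the summit of the KIFC1 interval by list, with exact 95% Poisson intervals that cover counting error only. Grey bands give the reads needed for an interval to be listed, from the lowest to the highest local background seen at KIFC1. The WT summits held 10 to 22 reads, the 1 K185R summit held 8, and 3 K185R lists had no interval.

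Reads were also divided by the floor of each list, which gives the summit relative to the genome-wide expectation. This was 102.5 in untreated WT (exact 95% Poisson interval 62.6 to 158.4), 41.1 with doxycycline (19.7 to 75.6), 122.4 with GSK2879552 (71.3 to 195.9) and 142.3 with both (89.2 to 215.4). In K185R with GSK2879552 it was 44.4 (19.2 to 87.4). The counting intervals of WT untreated, with doxycycline and with GSK2879552 each overlapped that of the K185R list. The treatment-matched pair with GSK2879552 thus overlapped. The untreated and GSK2879552 WT intervals also overlapped that of WT with doxycycline. Only the interval of the combined WT list lay above those of the K185R list and of WT with doxycycline. RB gave 19.5 in C4-2 (11.1 to 31.7) and 42.5 in VCaP (28.0 to 61.9). These are single values from separate libraries and were not tested against each other. PCR reads without molecular identifiers are not independent molecules.

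The reads needed for an interval to be listed depend on the local background, which was 2.06 to 4.57 times the floor at KIFC1 in the 7 lists with an interval. They were taken as the fewest summit reads whose −log10 p reaches the lowest value of the list. In each K185R list this was 4 reads at the low end of that range and 6 at the high end. Relative to the floor, 6 reads are 22.03 in the untreated, 31.9 in the doxycycline and 37.7 in the combined K185R list. These limits assume a local background within that range. A WT count exists only where an interval was listed, and the WT values were not tested against the limits. The background and the reads at KIFC1 in the 3 lists without an interval were not measured, so a signal under the limit there cannot be told from none.

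The KIFC1 summits in C4-2 fell close together. The 6 C4-2 summits, 1 RB and 5 V5, lay between 221 and 276 bases downstream of the start site, and the 4 WT summits spanned 27 bases. The RB summit of C4-2 and the WT summit with GSK2879552 were both 243 bases from the start. The VCaP RB summit was 99 bases downstream. These sides and distances hold for the hg19 start site only, which was not matched to the RefSeq start of the KIFC1 promoter above. All 7 intervals shared 160 bases, chr6:33359486-33359645. In rank by −log10 q, KIFC1 stood at 222 of 15099 intervals in untreated WT, 3591 of 64025 with doxycycline, 197 of 2805 with GSK2879552 and 125 of 3874 with both. It stood at 1384 of 9899 in K185R with GSK2879552. For RB it ranked 3403 of 9146 in C4-2 and 1269 of 17026 in VCaP.

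Sites that RB occupied in both cell lines give a background for the KIFC1 pattern. There were 5420 C4-2 RB intervals that overlapped one of VCaP. Of these, 77.5% had no V5 interval in any of the 8 lists, and 3.78% (205) had one in each of the 4 WT lists. V5 in each WT list together with 1 or none of the K185R lists, as at KIFC1, was seen at 0.572% (31). Of the 205, the other 174 had V5 in 2 or more K185R lists, and 152 of them in 4. Without the RB intervals of high local background (10 times the floor or more), 5233 sites were left. Among these, 1.99% (104) had V5 in each WT list, and 0.592% (the same number, 31) showed the full KIFC1 pattern. KIFC1 was one of the genes chosen with these calls known, so its place among these sites is a description. By −log10 q of RB in C4-2, KIFC1 ranked 184 of the 205.

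Among the kinases, AURKA had RB in both cell lines and no V5 interval. AURKA matures centrosomes and builds the spindle. Its C4-2 interval at chr20:54967646-54967792 had a fold of 6.36, a −log10 q of 7.75 and 17 summit reads. The VCaP interval at chr20:54967444-54967777 had a fold of 6.86, a −log10 q of 9.29 and 18 reads. The summits lay 370 and 269 bases upstream of the AURKA start, neither interval covered that start, and the intervals shared 132 bases. In RefSeq, the gene CSTF1, which encodes a subunit of the machinery that cleaves mRNA ends, lies within 2 kb of the AURKA start, and the intervals cannot be assigned to either gene. RefSeq also places a pseudogene, RPL35AP4, within 2 kb of KIFC1, the long non-coding RNA LOC105373554 by BUB1, DCTN5 by PLK1 and MAD2L1-DT by MAD2L1. A V5 interval of K185R with doxycycline lay 2068 bases from the AURKA start, just outside the window, with 6 summit reads.

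AURKB, the catalytic subunit of the chromosomal passenger complex, had 1 interval in all. It occurred in the WT doxycycline list, at chr17:8114135-8114360, 340 bases upstream of the start, with a fold of 5.30, a −log10 q of 3.87 and 9 summit reads. That list was the longest of the 10, and the interval ranked 13045 of 64025 in it. BIRC5, which encodes the passenger subunit survivin, had none, and its nearest interval lay 14.8 kb away in the same list. PLK1, a kinase acting from mitotic entry to cell division, had no interval closer than 21.3 kb, and its nearest RB intervals were 37.5 kb away in each cell line.

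Of the spindle checkpoint genes, BUB1 had RB in VCaP and MAD2L1 had none. BUB1 encodes a kinase that sits at kinetochores, and MAD2L1 encodes MAD2, the protein that blocks the anaphase-promoting complex. The BUB1 interval at chr2:111435669-111435985 had a fold of 7.34, a −log10 q of 8.51 and 14 summit reads, the lowest −log10 q of the 6 VCaP intervals. At MAD2L1 the nearest RB intervals were 437.6 kb away in VCaP and 612.0 kb away in C4-2. A V5 interval of 5 reads in the untreated K185R list lay 4.81 kb from its start.

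CCNB1 and TOP2A also had RB in VCaP alone. CCNB1 encodes cyclin B1, which activates CDK1 at mitotic entry, and its interval at chr5:68462573-68462955 had a fold of 7.19, a −log10 q of 9.02 and 16 summit reads. TOP2A encodes the topoisomerase that untangles sister chromatids, and its interval at chr17:38574166-38574437 had a fold of 7.64, a −log10 q of 10.9 and 19 reads. Their summits were 134 and 102 bases upstream of the start. Just outside the TOP2A window, a WT doxycycline interval of 7 reads lay 2.64 kb from the start.

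**Figure D3:**
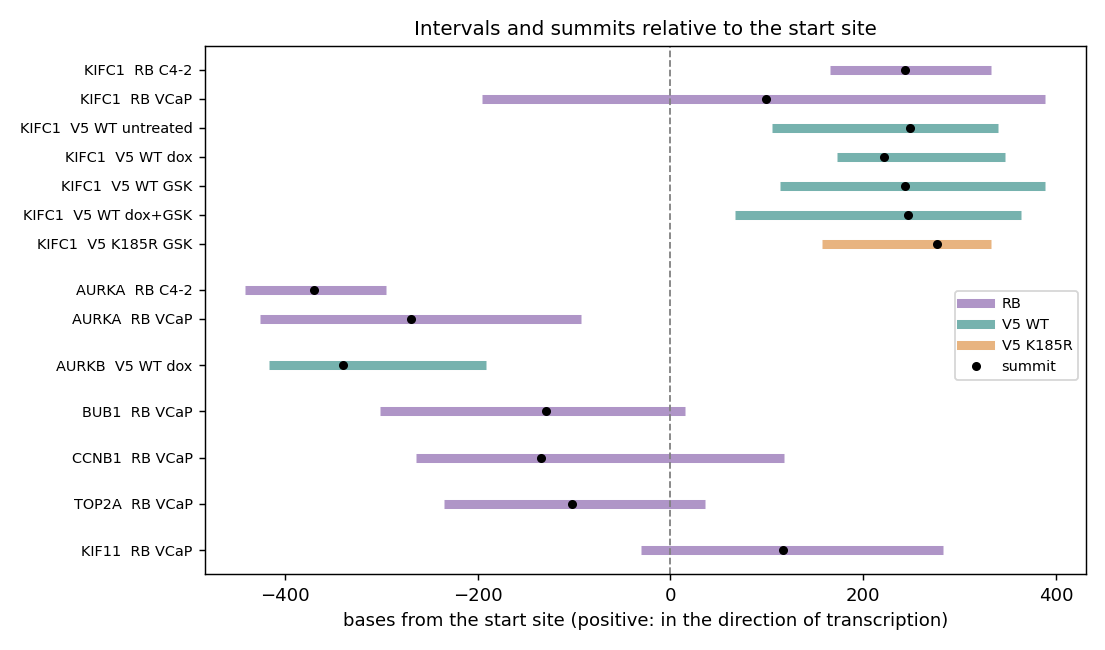
Extent (bars) and summit (points) of the 14 intervals relative to the hg19 start site, in bases, positive in the direction of transcription and coloured by assay. The summits lie 99 to 370 bases from the start, and those of KIFC1 in C4-2 cluster between 221 and 276 bases downstream.

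The 14 summits lay within 370 bases of a start site, with a median of 243 bases, although the window reached 2 kb. Of these summits, 7 were at KIFC1, whose own median was also 243 bases. The 6 VCaP RB summits had a median of 123 bases. Summits at KIFC1 and KIF11 were downstream, and the other 6 were upstream. In VCaP, 5 of the 6 RB intervals covered the hg19 start site itself, with AURKA the exception, and in C4-2 none of the intervals of either antibody did. Of the C4-2 intervals, 6 were at KIFC1, so this contrast rests largely on the start site used for that gene. Other annotated starts were not examined. VCaP intervals were also wider, 272 to 585 bases against 147 and 168 for RB in C4-2. The shortest interval in the whole list measured 213 bases in VCaP and 100 in C4-2. None of the 14 had a local background of 10 times the floor or more. The range was 1.64 to 4.57 times.

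The VCaP RB intervals at mitotic genes ranked in the upper part of their list by −log10 q, though none was among the first 1000. Intervals at other start sites were not examined, so this rank cannot be called particular to mitotic genes. Each of the 6 was among the 4264 VCaP intervals with a −log10 q of at least 7.89, at ranks from 7.45% to 21.8% of the list. Of those 4264 intervals, 62.1% overlapped an RB interval of C4-2, and in the whole list 30.2% did. Of the 6 genes, 2 had an RB interval in C4-2, and these 2 stood lower in the C4-2 list, at 34.4% for AURKA and 37.2% for KIFC1. The C4-2 list was the deeper of the 2. Among intervals with a local background in the range of the 14, the fewest summit reads were 8 in C4-2 and 6 in VCaP, values that reflect the low end of that range. By the labels C4-2 had 2 libraries and VCaP 1, although the interval names of the C4-2 RB list carry a single library name. Cell line, library and depth thus cannot be told apart.

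**Figure D4:**
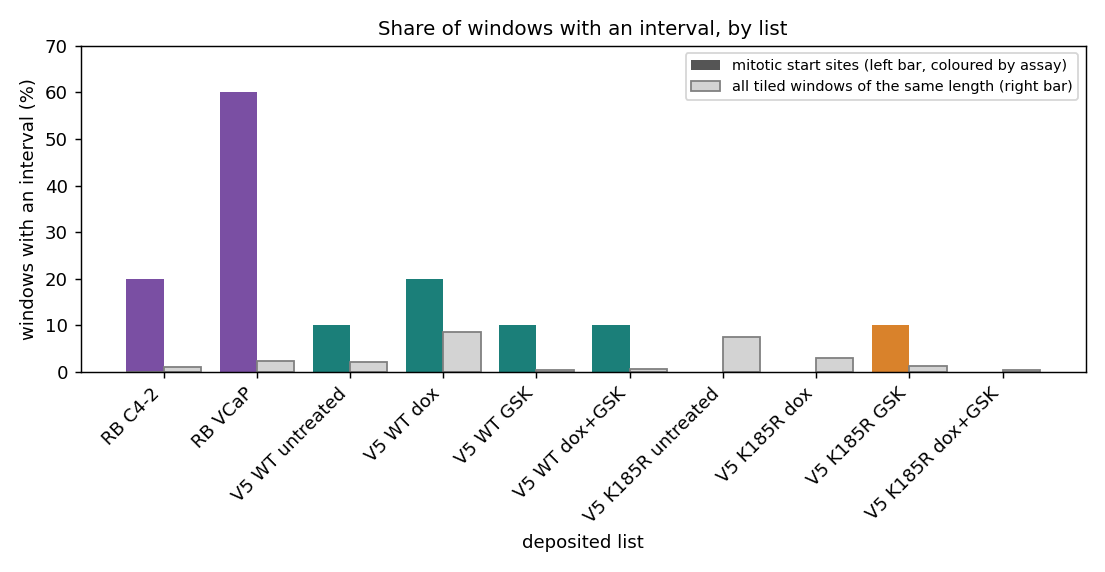
Share of the 10 mitotic start-site windows with an interval (left bars, coloured by assay) and of 758641 tiled windows of the same length (right bars, grey), in percent, for each list. VCaP RB stands at 60% of the mitotic windows, C4-2 RB at 20%, and each V5 list at 0 to 20%.

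Across the V5 lists the counts were small. In WT the occupied genes were KIFC1 alone without treatment (1 of 10, where 2.02% of tiled windows had an interval), KIFC1 and AURKB with doxycycline (2 of 10, against 8.55%), and KIFC1 alone with GSK2879552 (1 of 10, against 0.37%) and with both agents (1 of 10, against 0.512%). In K185R there were 0 of 10 without treatment (7.44% of tiled windows), 0 of 10 with doxycycline (3.0%), 1 of 10 with GSK2879552 (1.33%) and 0 of 10 with both (0.463%). The 2 longest V5 lists, WT with doxycycline and untreated K185R, thus held 2 and 0 of these genes.

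Set side by side, the mean was 1.25 genes per WT list and 0.25 per K185R list, a difference of 1.0 gene. WT was higher under 3 treatments and equal with GSK2879552. The 4 lists of a protein differ in treatment and are not replicates. For GSK2879552, the matched pairs differed by 0 and −1 gene in WT and by 1 and 0 in K185R, and the mean was 0.75 both with and without it. For doxycycline the WT pairs differed by 1 and 0 genes and the K185R pairs by 0 and −1, and the mean was again 0.75 on either side. KIFC1 had a WT interval under each of the 4 treatments. AURKB had one with doxycycline only, in the list where 8.55% of tiled windows had one. Of the 6 V5 intervals among 80 pairs of gene and list, 5 were at KIFC1 and 1 at AURKB.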

How the data were processed

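RB and V5 ChIP-seq libraries were summarised by 1 deposited list of intervals per group. Per the submitters' processing notes, the tools were MACS2 2.1.0, SAMtools 1.2, BWA 0.7.9a and FastQC 0.11.9, on build hg19. Settings, handling of duplicates and the control used were not given in the sources used here. For each interval, the authors deposited a fold enrichment (a linear ratio of summit to local background) and a p-value and q-value as −log10 p and −log10 q. Interval names show merged libraries for V5 and a single library name for RB in C4-2. Labels put each list in its group.

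Summit reads k and background b were solved from fold = (k + 1)/(b + 1) and a Poisson tail. The recomputed −log10 p differed from the deposited one by at most 0.000163, and the solver was checked on simulated intervals. Windows were tiled over the 22 autosomes and X, up to the last interval of any list. Python 3.11.15, numpy 2.4.6, scipy 1.17.1, pandas 2.3.3 and matplotlib 3.10.9 were used. Genes and lists were chosen with earlier results of these data known, each of the 10 genes was named, and no test was made. Strand came from RefSeq, and for AURKA and BIRC5 from general knowledge. Gene lists of other functions were not analysed here, since the start-site table used GRCh38.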

Additional observations from a re-analysis of the deposited data

How the results depend on the processing

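The number of genes with an interval was the same with windows of 1 kb or 500 bases either side, with summits in place of whole intervals, and without high-background intervals, in each of the 10 lists. With only the 1000 intervals of highest −log10 q, RB lay at 0 genes in C4-2 and 0 in VCaP, and the means were 0.75 genes per WT list and 0 per K185R list, since KIFC1 was left in 3 WT lists. At −log10 q of at least 5 the mean was 0 per K185R list, and KIFC1 was left in each of the 4 WT lists. The AURKB interval, with a −log10 q of 3.87, was lost. In a further setting, reads and background of each list were scaled to the depth of the shallowest, WT with GSK2879552. Its lowest −log10 p, 4.30, was then required. This left 0 genes with RB in C4-2 and 4 in VCaP, and the V5 counts did not change. For C4-2 the scaling was from 8.21 to 0.716 reads per kilobase, and its median interval had 14 summit reads. The share of that whole list left was not measured, so the 0 says nothing particular to these genes. Leaving out 1 list at a time gave means from 1.0 to 1.33 for WT and from 0 to 0.333 for K185R, where 0 is the value without the GSK2879552 list. For the differences, 1 matched pair of lists was left out at a time. The WT minus K185R difference then ranged from 0.667 to 1.33, and those for GSK2879552 and for doxycycline from −0.333 to 0.333. No paired analysis was possible because replicate libraries have no lists of their own and could not be paired, and pairs in the report match lists by treatment or protein only.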
